A study of Mus musculus with 12 samples.

Results

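Immediate early genes are transcribed within minutes of a stimulus from factors already present in the cell, with no need for new protein. Growth factor signals reach them through Ras, Raf, MEK and ERK, which phosphorylate the partners of serum response factor at the CArG box, and through kinases that phosphorylate CREB at the cAMP response element. Fos and Jun proteins pair as AP-1, Egr proteins are zinc finger factors that bind GC-rich DNA, and their transcripts decay quickly. In the colon they are known to respond to growth factors, injury and the handling of tissue. Sprouty2, the product of Spry2, restrains receptor tyrosine kinase signaling, so these genes show whether transcripts at the start of the ERK response differed when epithelial Spry2 was deleted.

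The set held 10 genes chosen by name, Fos, Fosb, Fosl1, Fosl2, Jun, Junb, Egr1, Egr2, Egr3 and Ier3, out of 35241 gene symbols. RNA of full-thickness distal colon was sequenced from 12 Mus musculus mice. Spry2IEKO (Vil1::Cre;Spry2-f/f, n = 6) carried floxed Spry2 and Cre driven by a villin promoter construct, which is active in intestinal epithelium. Spry2FF (Spry2-f/f, n = 6) were littermates with the same floxed alleles and no Cre, so floxed Spry2 was shared by all 12 mice. Each genotype had 3 mice of litter A and 3 of litter B. Spry2FF held 3 males and 3 females, and Spry2IEKO held 1 male and 5 females. The age was given as 6 weeks in one protocol and 8 weeks in another. The labels name no treatment. The wall of the colon also holds muscle, nerve, stroma and immune cells, in which this Cre is not active.

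Values were TPM (transcript abundance corrected for transcript length) scaled between libraries by the authors, and they are called normalized TPM here. The sum per mouse ranged from 918816 to 1069158 normalized TPM, and the files hold no read counts per mouse, so no counting interval was possible. Spry2 was 27.7 ± 3.29 (SD, n = 6) in Spry2FF and 20.04 ± 1.59 (n = 6) in Spry2IEKO, with ranges of 22.8 to 32.3 and 18.5 to 22.5 that did not overlap. Its difference of -0.45 (SE 0.09) on the log2 scale had an adjusted p of 0.16 by limma. All 9 smooth muscle markers, 8 epithelial markers and 9 neuronal and glial markers were above 0 in at least 1 mouse. The epithelial markers summed to 4919 to 6264 normalized TPM in Spry2IEKO and 6011 to 7608 in Spry2FF. Goblet cell markers were higher in Spry2IEKO in 7 of 7 genes, with a median log2 difference of 0.51 and none past the adjusted threshold. An unadjusted p under 0.05 by limma was found for 6 of these 7 and for 5 of the 8 epithelial markers, against 6.18% of all genes. The part of cell makeup in the genotype values below was not tested. In bulk tissue, fewer cells of a type and less RNA per cell cannot be told apart.

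Of the 10 genes, Fos varied with Fosb and Jun with Junb over the 12 mice, with Pearson r of 0.78 and 0.79. Neither pair passed after adjustment over all genes (permutation, adjusted p of 0.9997 and 0.174). Jun with Fosl2 (0.73) and Fosl2 with Ier3 (0.71) had r close to these. The 120 bases before the start of Fos, Fosb, Jun and Junb are shown because of the first 2 of these r. They were taken from RefSeq on GRCm38.p6, 5′ to 3′ on the gene's own strand, with the letters of the searched motifs in capitals.
Fos: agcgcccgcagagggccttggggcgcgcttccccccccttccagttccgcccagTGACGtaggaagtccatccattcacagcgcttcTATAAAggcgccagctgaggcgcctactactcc
Fosb: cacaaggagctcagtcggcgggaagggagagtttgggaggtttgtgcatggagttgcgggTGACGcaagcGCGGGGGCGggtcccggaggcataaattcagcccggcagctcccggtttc
Jun: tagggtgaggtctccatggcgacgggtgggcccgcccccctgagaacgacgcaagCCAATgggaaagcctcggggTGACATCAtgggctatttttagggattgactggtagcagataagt
Junb: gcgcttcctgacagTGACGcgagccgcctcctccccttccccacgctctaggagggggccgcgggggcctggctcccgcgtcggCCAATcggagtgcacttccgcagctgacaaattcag
These stretches lie at chr12:85473770-85473889 on the plus strand for Fos, chr7:19310046-19310165 on the minus strand for Fosb, chr4:95052223-95052342 on the minus strand for Jun and chr8:84978749-84978868 on the minus strand for Junb.

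Fos, Fosb and Junb held TGACG, the letters that open the cAMP response element TGACGTCA. TGACG was found on either strand in 17.7% of 32817 promoters of 250 bases. Fos held the TATA box TATAAA from 33 to 28 bases before its start, a motif of 12.4% of promoters. Fosb held the Egr motif GCGNGGGCG, found in 4.70% of promoters, beside its TGACG. Jun held TGACATCA, a match to TGACNTCA from 45 to 38 bases before its start, and 7.49% of promoters held such a match, which includes TGACGTCA and overlaps TGACG. Jun and Junb held CCAAT, which 33.8% of promoters held. None of the promoters matched for the 10 genes held the AP-1 motif TGANTCA, found in 6.75% of promoters, and the CArG box, found in 1.47%, was matched in that of Egr2 only. Only the 250 bases before each start were searched, so a motif farther upstream would be missed. These matches describe letters and were not tested for binding. Promoters were matched for 7 genes, and no sequence is given for Fosl1, Egr1 and Egr3.

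On GRCm38, the Fos gene spans chr12:85473890-85477273 and Jun spans chr4:95049034-95052222 in a single exon. Junb, also a single exon in its coding transcript, spans chr8:84974484-84978718, Fosb chr7:19302696-19310051 and Egr3 chr14:70077203-70082614. Jun is overlapped by the antisense gene Junos, Junb by Prdx2 and Fosl1 by Ccdc85b, and whether strand was used in the quantification is not given in the sources used here. The 10 genes had 39 transcripts in the file. Egr2 had 14 of them under 2 gene identifiers with identical values, so its sum counted each transcript under both.

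The levels fell into steps. Fos, the central AP-1 subunit, averaged 74.1 normalized TPM over the 12 mice, and Fosl2 (Fra-2), a longer-lived relative, averaged 61.3. Fos was above Fosl2 in 6 of 12 mice, so their order lay within their spread. Junb at 23.4 and Jun at 21.8 followed, with Junb higher in 6 of 12 mice. Fosl2 exceeded Junb in every mouse, from 49.5 at its lowest against 37.0 at the highest of Junb. Ier3, a regulator of cell survival, averaged 7.46 and Egr1 6.81, with Ier3 higher in 7 of 12 mice. Fosb at 1.29, Fosl1 (Fra-1) at 0.966 and Egr3 at 0.892 were near 1 normalized TPM and their ranges overlapped. Egr2 averaged 0.352, was listed at 0 in 1 mouse and did not reach the mean of 0.5 required for testing. The other 9 genes were tested among 15880 genes.

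**Figure D1:**
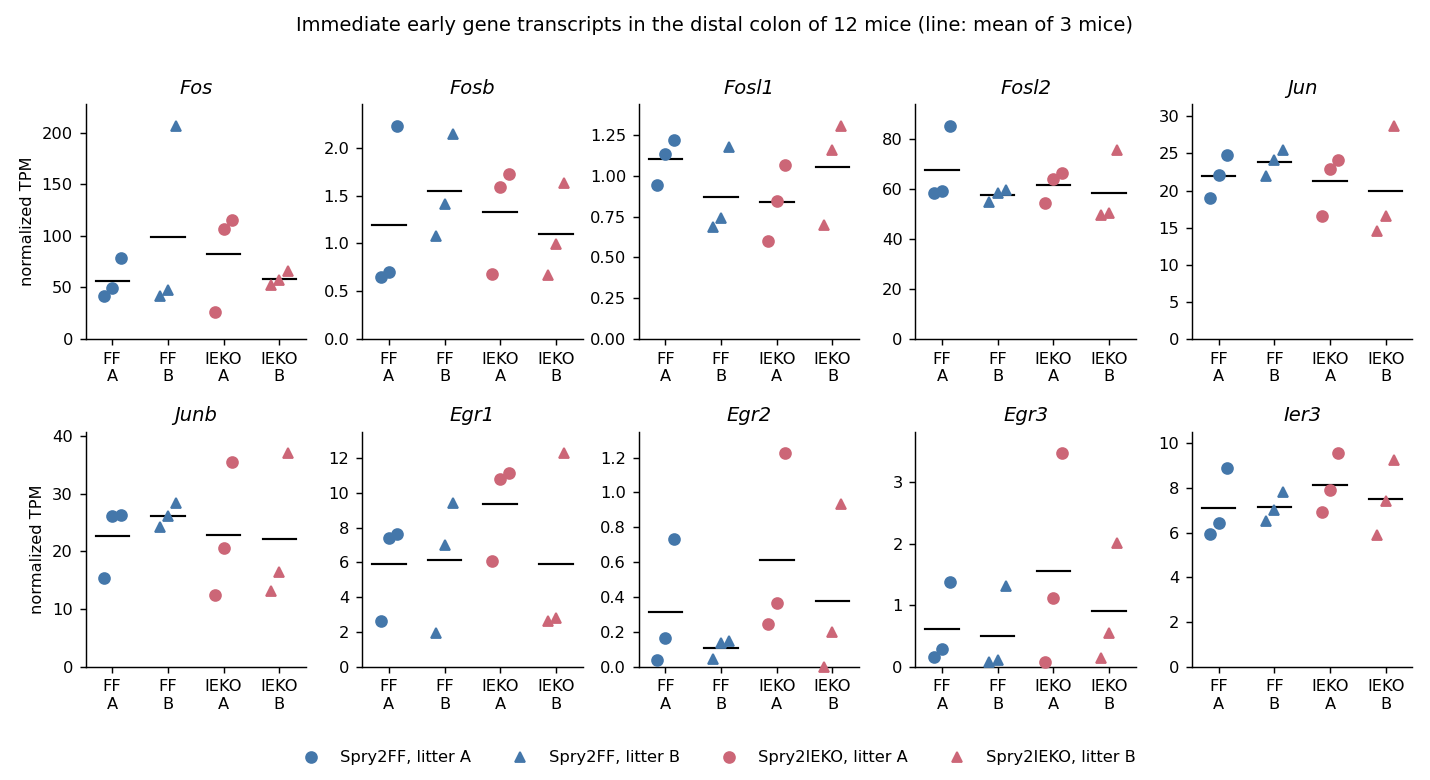
Normalized TPM (y axes, each from 0) of the 10 genes in 12 mice, by genotype and litter on the x axes (FF, Spry2FF; IEKO, Spry2IEKO). Points are mice and lines are means of 3 mice; the Fos value of 207 in Spry2FF replicate 9 stands far above the others, and the genotypes overlap for every gene.

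Fos transcripts did not separate the genotypes. Fos was 26.5, 52.0, 56.8, 66.3, 107 and 115 normalized TPM in the 6 Spry2IEKO mice and 41.6, 42.0, 47.5, 49.3, 78.4 and 207 in the 6 Spry2FF mice. The highest value, 207 in Spry2FF replicate 9, and the lowest, 26.5 in Spry2IEKO replicate 4, came from opposite genotypes and opposite litters. The means were 70.6 ± 34.1 (SD, n = 6) and 77.6 ± 64.8 (n = 6), and the log2 difference of -0.01 (SE 0.42) had a 95% interval of -0.92 to 0.90 (limma, adjusted p = 0.999). Without Spry2FF replicate 9 the log2 difference was 0.33. Within litter A it was 0.34, and within litter B -0.36. Most of the Fos signal came from its coding transcript, whose share ranged from 86.8% to 98.0% of the gene in the 12 mice.

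Fosb, Fosl1 and Fosl2, the other Fos family members, also overlapped between genotypes. Fosb was 0.672 to 1.73 normalized TPM with a median of 1.29 in Spry2IEKO and 0.652 to 2.23 with a median of 1.25 in Spry2FF. Fosl1 ranged from 0.598 to 1.31 in Spry2IEKO and from 0.687 to 1.22 in Spry2FF. Fosl2 had a median of 59.1 in Spry2IEKO and 58.7 in Spry2FF, with Spry2FF replicate 3 alone at 85.2 and no other mouse above 75.5. The log2 differences were -0.09 (SE 0.28) for Fosb, -0.05 (SE 0.18) for Fosl1 and -0.06 (SE 0.13) for Fosl2. The interval was narrowest for Fosl2, from -0.33 to 0.21, and covered changes as large as -0.69 to 0.50 for Fosb.

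Jun and Junb, which supply the other side of AP-1, were spread more widely in Spry2IEKO than in Spry2FF. Jun was 14.6, 16.6, 16.6, 22.9, 24.2 and 28.7 normalized TPM in Spry2IEKO and 19.1, 22.0, 22.0, 24.2, 24.8 and 25.4 in Spry2FF. The 3 lowest values of Jun and its highest all belonged to Spry2IEKO mice, and the Spry2FF mice lay between them. Junb was 12.5, 13.05, 16.4, 20.5, 35.4 and 37.0 in Spry2IEKO and 15.4, 24.1, 26.0, 26.2, 26.3 and 28.4 in Spry2FF. For Junb too, the 2 lowest and the 2 highest mice were Spry2IEKO. The SD was 5.51 against 2.37 for Jun and 11.04 against 4.61 for Junb, and this difference in spread was not tested. The mean difference on the log2 scale was -0.18 (SE 0.15, 95% interval -0.51 to 0.14) for Jun and -0.23 (SE 0.27, -0.81 to 0.36) for Junb, with adjusted p of 0.888 and 0.919 by limma.

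Egr1, a factor often used as a readout of ERK activity, fell into separated levels that crossed both genotypes. It was 2.65, 2.81, 6.08, 10.8, 11.1 and 12.3 normalized TPM in Spry2IEKO and 1.93, 2.62, 7.02, 7.40, 7.61 and 9.42 in Spry2FF. In 4 mice Egr1 lay from 1.93 to 2.81 and in the other 8 from 6.08 to 12.3, with none between, and each genotype had 2 of the low mice. The 3 highest mice were Spry2IEKO, at 10.8 to 12.3. The log2 difference was 0.28 (SE 0.45, 95% interval -0.70 to 1.25, adjusted p = 0.941 by limma). Within litter A it was 0.70 and within litter B -0.15, and the interaction of genotype and litter was -0.85 (SE 0.91).

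Egr3 and Egr2, which are induced in activated lymphocytes, were low and uneven. Egr3 was 0.0733, 0.141, 0.551, 1.13, 2.01 and 3.47 normalized TPM in Spry2IEKO and 0.0792, 0.114, 0.149, 0.282, 1.32 and 1.39 in Spry2FF. The highest mouse stood 47.4 times above the lowest, and both were Spry2IEKO mice of litter A. Egr3 had the largest log2 difference of the 9 genes, 0.56 (SE 0.51), with an interval of -0.53 to 1.65 and an adjusted p of 0.894 by limma. Its transcript with a retained intron made up 53.9% of its mean. Egr2 ranged from 0.0382 to 0.731 in Spry2FF and from a listed 0 to 1.22 in Spry2IEKO, and with the filter lowered to a mean of 0.1 its log2 difference was 0.42 (SE 0.31, adjusted p = 0.895). Ier3 was steadier, from 5.93 to 8.91 in Spry2FF and from 5.91 to 9.55 in Spry2IEKO, with a log2 difference of 0.12 (SE 0.13, 95% interval -0.16 to 0.41).

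None of the 9 tested genes passed an adjusted p of 0.05 between genotypes, where 0.0315% of all genes tested did (5 of 15880), and none had an unadjusted p under 0.05, where 6.18% of all genes did. The genotypes overlapped for all 9, while 0.403% of all genes had groups that did not overlap. A two-sided exact permutation test that enumerated every division of the 12 animals gave p from 0.297 for Egr3 to 0.864 for Fos. Before adjustment 6.01% of all genes had p under 0.05. The smallest p this test allows is 0.00217, so the 0% called after adjustment over 15880 genes was nearly fixed by the design. Of the 9 genes, 6 were lower in Spry2IEKO by limma and 3 higher, and the median gene of all genes tested had a log2 difference of 0.01. Sex differed between the groups, and with sex as a covariate Fos, Fosl1 and Fosl2 were 0.05, 0.03 and 0.04 higher in Spry2IEKO on the log2 scale.

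**Figure D2:**
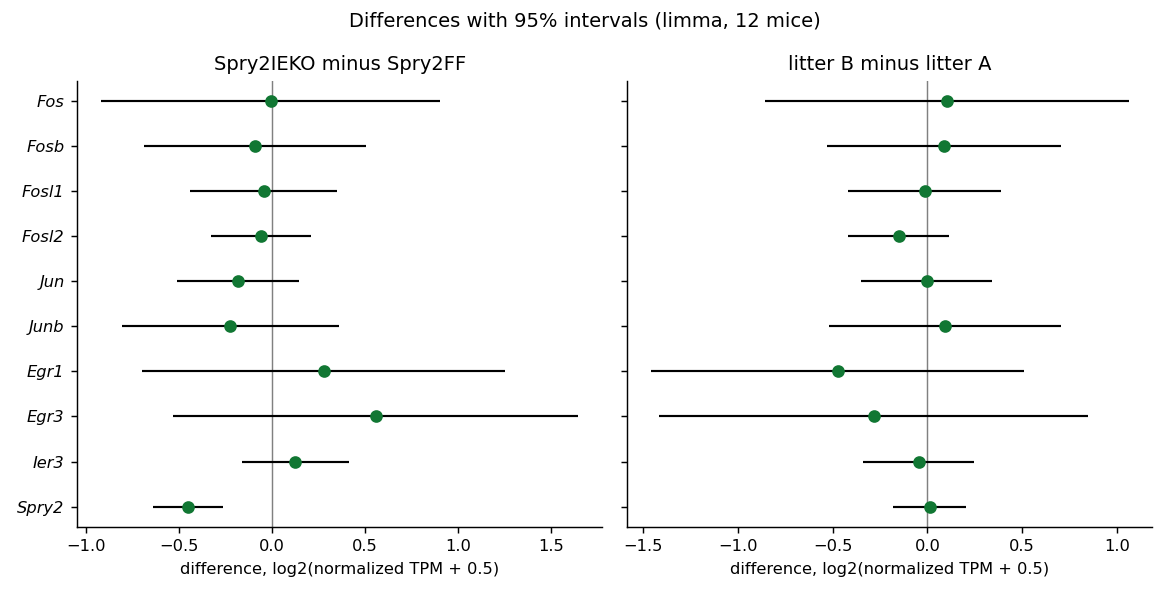
Differences of the 9 tested genes and Spry2 (y axis) on the log2(normalized TPM + 0.5) scale (x axes), between genotypes on the left and between litters on the right. Points are limma estimates from 12 mice and bars are 95% intervals; every interval of the 9 genes includes 0, and that of Spry2 between genotypes, from -0.64 to -0.26, does not.

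Many transcripts of the wall differed between litters, but none of these 9 past the threshold. The libraries of each litter share a prefix in their names and run in sequence, so litter and that grouping cannot be told apart. Between litters, 4.38% of all genes passed (696 of 15880, 171 higher and 525 lower in litter B), and 21.9% of all genes but none of the 9 had an unadjusted p under 0.05. This split depended on the scaling, with 209 higher and 268 lower after quantile normalization, 222 and 275 after median-of-ratios scaling, and 105 and 1353 after rescaling to equal totals, which moved the median gene to -0.12. Egr1 had the largest difference, with 7.60 ± 3.16 normalized TPM in litter A against 6.02 ± 4.24 in litter B (SD, n = 6 each). That was -0.47 (SE 0.45) on the log2 scale with an interval of -1.46 to 0.51. Fosl2 averaged 64.6 in litter A against 58.1 in litter B, a log2 difference of -0.15 (SE 0.12, adjusted p = 0.505 by limma). The differences of Fosl1, Jun and Ier3 were within 0.05 of 0 and changed sign with the scaling. The test of genotype by litter called 0.0126% of all genes and none of the 9 (4.19% and none without adjustment), whose log2 interactions ranged from -0.85 for Egr1 to 0.45 for Fosl1.

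The genes differed more between mice than between groups. Over the 12 mice, the SD of log2 levels was 0.96 for Egr3, 0.85 for Egr1 and 0.79 for Fos, against a median of 0.25 for all genes tested. Only 8.27% of all genes had a larger SD than Fos. Among the 2918 genes within 2-fold of the mean of Fos, 1.2% did. The SD was 0.52 for Junb, 0.47 for Fosb, 0.29 for Jun, 0.25 for Fosl1, 0.23 for Fosl2 and 0.22 for Ier3. Of the genes within 2-fold of each one's own mean, 4.28% varied more than Junb, 7.33% more than Egr1, 14.2% more than Egr3, 20.7% more than Jun and 23.8% more than Fosl2. The shares were 45.7% for Fosb, 64.8% for Ier3 and 89.6% for Fosl1. Fos ranged 7.80-fold from its lowest to its highest mouse, Egr1 6.35-fold, Junb 2.97-fold, Jun 1.97-fold and Ier3 1.62-fold.

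**Figure D3:**
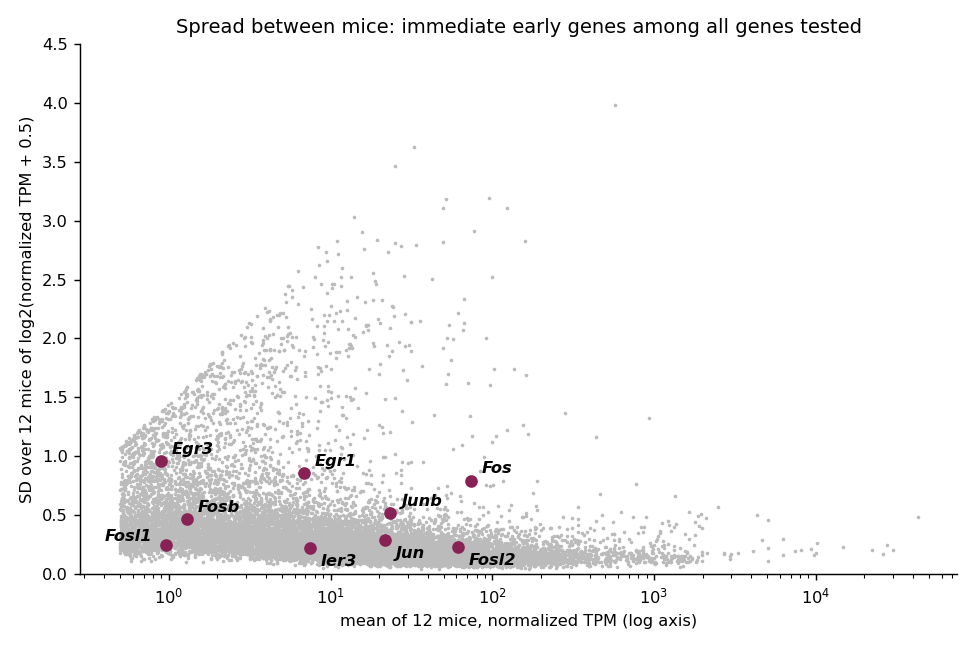
SD over the 12 mice of log2(normalized TPM + 0.5) (y axis) against the mean in normalized TPM (x axis, log scale) for all 15880 genes tested (grey) and 9 immediate early genes (purple). Fos, at a mean of 74.1 and an SD of 0.79, stands above nearly all genes of its level, while Fosl2 and Ier3 lie inside the band.

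The same mice were not high for all of these genes. Spry2IEKO replicate 6 was among the 3 highest mice for 6 of the 9 genes and Spry2IEKO replicate 8 for 5 of 9, the latter leading in Jun, Junb and Egr1 while standing 7th for Fos and 11th for Fosb. Spry2FF replicate 9, the highest for Fos, was 8th for Jun. Spry2IEKO replicate 4, the lowest for Fos, Fosl1 and Junb, was the highest for Egr3.

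Egr1 fell into separated levels and Egr3 is described apart, so correlations over all 12 mice are given for the other 7 genes, in 21 pairs, on the log2 scale and adjusted over all 15879 other genes. Fos and Fosb rose and fell together, with a Pearson r of 0.78 (permutation p = 0.00159, adjusted p = 0.9997) and a Spearman rho of 0.79 (permutation p = 0.00355). Fosb ranked 8th among 15879 genes for likeness to Fos. Their r was 0.84 within litter A and 0.73 within litter B, 0.85 within Spry2IEKO and 0.74 within Spry2FF, and 0.71 without the 2 mice farthest from the median of Fos. With Fos, 3.48% of all genes had an unadjusted p under 0.05 and 0% passed after adjustment.

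Jun varied with Junb, Fosl2 and Ier3 and not visibly with Fos. Jun and Junb had r = 0.79 (permutation p = 0.00274, adjusted p = 0.174) and rho = 0.69 (permutation p = 0.0154). That r was 0.54 within litter A and 0.98 within litter B, 0.88 within Spry2IEKO and 0.19 within Spry2FF, whose mice covered a narrow range, and 0.68 without the 2 mice farthest in Jun. With Fosl2 Jun had r = 0.73 (permutation p = 0.00672) and rho = 0.70 (permutation p = 0.014), with 0.78 and 0.82 in litters A and B, 0.98 within Spry2IEKO and 0.28 within Spry2FF, and 0.57 without the 2 farthest mice. With Ier3 Jun had r = 0.65 (permutation p = 0.0224) and rho = 0.71 (permutation p = 0.0118), with 0.63 and 0.75 in litters A and B, 0.87 within Spry2IEKO and 0.86 within Spry2FF, and 0.64 without the 2 farthest mice. The differences between genotypes in these r were not tested. No pair with Jun passed after adjustment, and 13.7% of all genes had an unadjusted p under 0.05 with Jun. With Fos, Jun had r = 0.10 (permutation p = 0.756) and rho = -0.14 (permutation p = 0.669), and r = 0.05 without the 2 mice farthest in Fos.

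**Figure D4:**
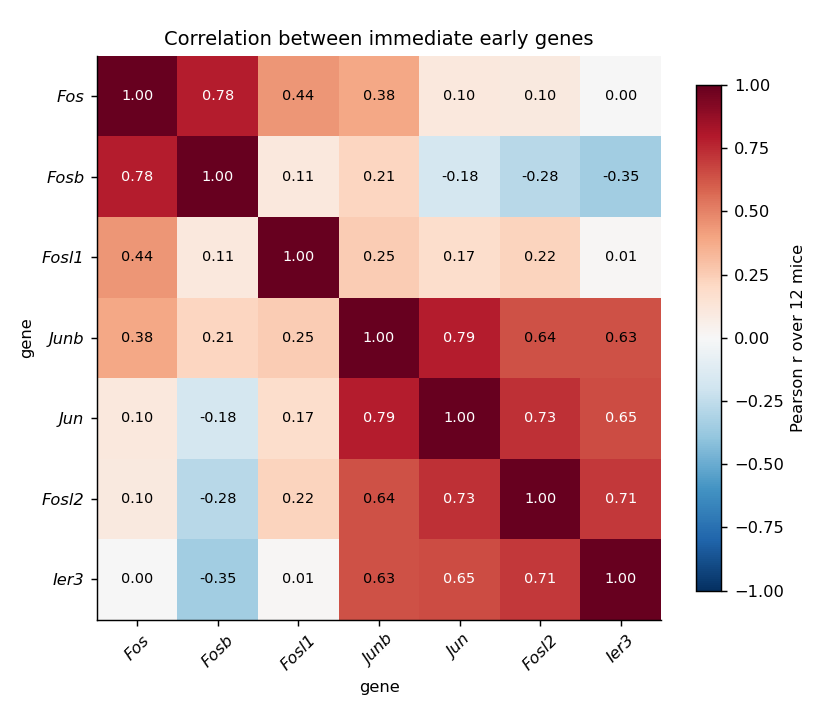
Pearson r over 12 mice between 7 immediate early genes on the log2 scale (both axes list the genes; the color bar runs from -1 to 1). Fos and Fosb form a pair at 0.78, Junb, Jun, Fosl2 and Ier3 form a block at 0.63 to 0.79, and values between the pair and the block run from -0.35 to 0.38.

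Smooth muscle markers varied with Jun, short of the adjusted threshold. All 9 markers, among them Acta2, Myh11 and Des, were above 0 in the tissue, and their sum ranged from 3380 to 8273 normalized TPM in Spry2IEKO and from 4381 to 7248 in Spry2FF. Jun and this sum had r = 0.70 (permutation p = 0.0102, adjusted p = 0.227) and rho = 0.55 (permutation p = 0.0703), with 0.67 within litter A, 0.72 within litter B and 0.70 without the 2 mice farthest in the sum. With the same sum r was 0.64 for Fosl2 (permutation p = 0.0233; rho = 0.77, permutation p = 0.00491) and 0.13 for Fos (permutation p = 0.694; rho = 0.17, permutation p = 0.604). For Fosl2 it was 0.34 within litter A, 0.91 within litter B and 0.69 without the 2 farthest mice. For Fosl1 r was 0.61 (permutation p = 0.0375; rho = 0.57, permutation p = 0.0593), with 0.54 and 0.65 in litters A and B and 0.57 without the 2 farthest mice. For Junb r was 0.46 (permutation p = 0.136; rho = 0.43, permutation p = 0.171), with -0.03 and 0.83 in litters A and B and 0.61 without the 2 farthest mice. Jun also had r = 0.58 with neuron and glia markers (permutation p = 0.0452; rho = 0.48, permutation p = 0.118), which was -0.06 in litter A, 0.85 in litter B and -0.05 without the 2 farthest mice. With goblet cell markers Jun had r = -0.60 (permutation p = 0.0421; rho = -0.41, permutation p = 0.185), which was -0.31 and -0.79 in litters A and B and -0.55 without the 2 farthest mice. None of these passed after adjustment over all genes. They belong to a family of 99 relations of 9 genes with marker sums, in which Egr3 passed with B cell and T cell markers, as described below. Among all genes, 12.7% had an unadjusted p under 0.05 with the muscle sum and 0.642% passed after adjustment. Spry2IEKO replicate 8, the highest for Jun and Junb, had the highest muscle sum, and Spry2IEKO replicate 12, the lowest for Jun, had the lowest. The part of cell makeup in the covariation of Jun was not tested.

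Egr3 moved with B cell markers. The sum of 5 markers, Cd79a, Cd79b, Ms4a1, Cr2 and Fcer2a, was 71.4 to 301.3 normalized TPM in 5 mice and 1.94 to 15.41 in the other 7. Egr3 was 1.13 to 3.47 in those 5 mice and 0.0733 to 0.551 in the 7. The share of all genes that also separated these sets of mice is not given here. The 5 mice were Spry2FF replicates 3 and 10 and Spry2IEKO replicates 4, 6 and 11, so both genotypes and both litters held them, and the markers ranged from 5.14 to 301.3 in Spry2IEKO and from 1.94 to 121.5 in Spry2FF. T cell markers, 5 of 5 above 0, summed to 9.23 to 24.9 in the 5 and 2.92 to 8.91 in the 7.

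Over all 12 mice Egr3 passed the adjusted threshold with the B cell sum by permutation, as did 2.14% of all genes (340 of 15880). It passed with the T cell sum too, as did 3.29% of all genes. Because the B cell sum was split by a wide gap, no r over all 12 mice is given for it. Within the 7 mice of low B cell markers, which cover only part of the range, Egr3 and the B cell sum had r = 0.42 (exact permutation p = 0.351, adjusted p = 0.859) and rho = 0.46 (exact permutation p = 0.302). Ms4a1, which encodes CD20, was 8.55 to 44.8 in the 5 mice and 0.382 to 1.90 in the 7. It is part of the sum that set this split, so its separation adds no support. Egr2 overlapped between them, from 0.136 to 1.22 and from 0 to 0.931. How much of Egr3 came from lymphoid cells was not tested.

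**Figure D5:**
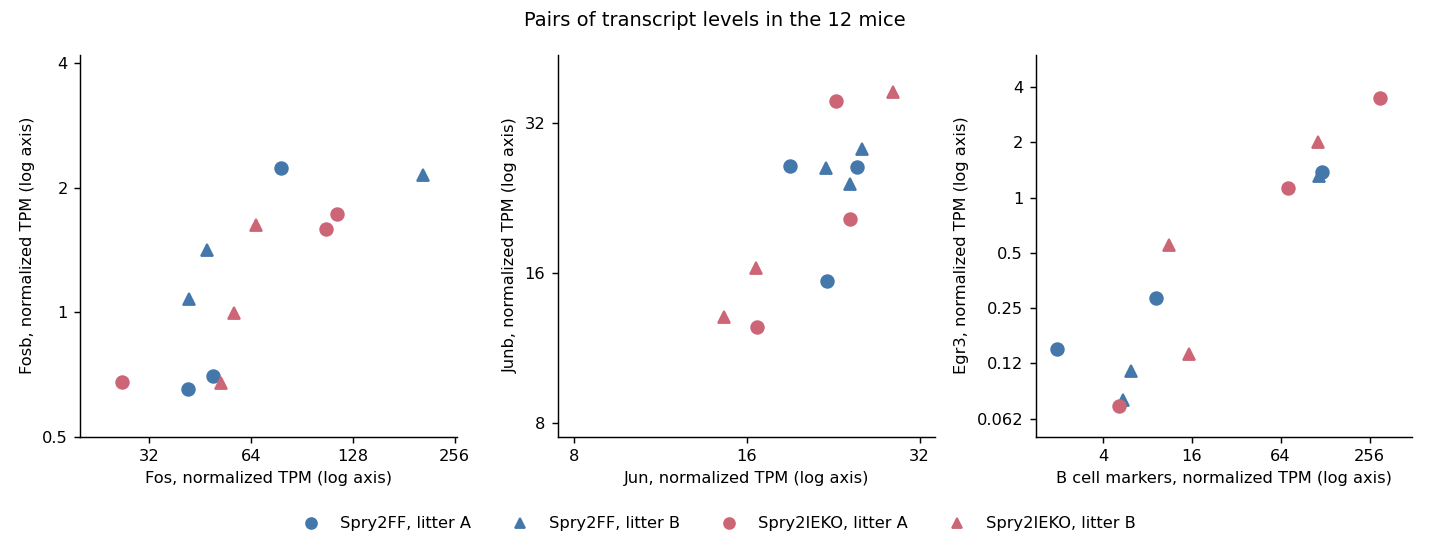
Levels in normalized TPM on log axes: Fosb (y) against Fos (x), Junb (y) against Jun (x), and Egr3 (y) against the sum of 5 B cell markers (x). Each point is a mouse, colored by genotype and shaped by litter; in the right panel 5 mice with sums of 71.4 to 301.3 and Egr3 of 1.13 to 3.47 stand apart from 7.

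Within the 8 mice of higher Egr1, its r was 0.64 with Junb (exact permutation p = 0.0701; rho = 0.52, exact permutation p = 0.197), 0.64 with Jun (exact permutation p = 0.0876; rho = 0.48, exact permutation p = 0.243) and 0.58 with Fos (exact permutation p = 0.128; rho = 0.64, exact permutation p = 0.0962). With Fosl2 r was 0.46 (exact permutation p = 0.259; rho = 0.76, exact permutation p = 0.0368) and with Egr3 -0.59 (exact permutation p = 0.124; rho = -0.52, exact permutation p = 0.197). The other r were 0.21 with Fosb, 0.56 with Fosl1 and 0.54 with Ier3. No r passed after adjustment over all genes, with adjusted p from 0.856 to 0.956. The 4 low mice were too few for a useful test and were not tested on their own.

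Outside the set, the genes most like Fos over the 12 mice were Srd5a1, a steroid reductase (r = 0.85), Net1, an exchange factor for RhoA (0.85), Cldn8, a claudin of tight junctions (0.81), Psmd9 (0.80), Zfp36l2, which promotes mRNA decay (0.79), Mtmr7 (0.79), Rufy2 (0.78), Ppp1r13l, an inhibitor of p53 (0.78), Gm37713 (0.78) and Wdr26 (0.77). At the other end stood Dll1, a Notch ligand (-0.87), Rnf19b (-0.85), Cep57l1 (-0.84), Nup35 (-0.82) and Tpbgl (-0.82). Spearman's rho ranged from 0.40 for Psmd9 to 0.86 for Net1 at the upper end and from -0.85 for Tpbgl to -0.76 for Rnf19b at the lower. Permutation p ranged from 0.0001 for Dll1 to 0.0079 for Gm37713 for r and from 0.00053 for Net1 to 0.20 for Psmd9 for rho, and every adjusted p for r was 0.9997. Each of the 15 genes kept its sign within both litters, which choosing the extremes over these same mice made likely. Without the 2 mice farthest in Fos, r ranged from 0.51 for Ppp1r13l to 0.78 for Srd5a1 at the upper end, with no value for Gm37713, and from -0.76 for Cep57l1 to -0.62 for Nup35 at the lower.

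Of 45 other immediate early genes listed, 44 were above 0 in at least 1 mouse and 43 were tested. Between genotypes 25 of 43 were higher in Spry2IEKO and none passed the adjusted threshold. The median log2 difference was 0.02. The largest was that of Nr4a1 (Nur77), an orphan nuclear receptor, at 7.53 ± 1.58 normalized TPM in Spry2IEKO and 4.74 ± 2.73 in Spry2FF (SD, n = 6 each), with a log2 difference of 0.72 (SE 0.25, adjusted p = 0.694 by limma). Nr4a2 (0.56), the phosphatase gene Dusp2 (0.55), the matricellular gene Ccn1 (0.40) and the stress factor Atf3 (-0.33) followed on the log2 scale, with adjusted p from 0.845 to 0.915. Nr4a1 was the only one of the 43 with an unadjusted p under 0.05, where 6.18% of all genes had one.

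Between litters, 1 of the 43 passed, where 4.38% of all genes did. Ccn2, a matricellular gene of the YAP and SRF response, fell from 15.2 ± 2.67 normalized TPM in litter A to 9.79 ± 1.22 in litter B (SD, n = 6 each), a log2 difference of -0.60 (SE 0.13, adjusted p = 0.0269 by limma). It kept that direction without any 1 mouse, from -0.68 to -0.53, but stayed past the threshold in 5 of 12 such fits, with adjusted p up to 0.0632, and in females it had 0.133. Markers of fibroblasts (median log2 difference -0.73, 3 of 5 called) and of endothelium (-0.94, 4 of 5 called) were lower in litter B too, and their part in the values of Ccn2 was not tested. The median of the 43 was 0.02 between litters, against -0.05 for all genes tested. Nr4a2 (0.68), Dusp2 (-0.63), Klf2 (-0.58) and Atf3 (0.56) had adjusted p from 0.216 to 0.594.

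The other immediate early genes were also set against the members. The median r over the 43 was 0.17 with Fos, 0.10 with Jun and 0.09 with Junb. An unadjusted permutation p under 0.05 was found for 2 of 43 with Fos (4.65%, against 3.48% of all genes), 3 with Fosb (6.98%, against 3.24%), 1 with Fosl1 (2.33%, against 5.2%) and 6 with Fosl2 (14.0%, against 10.7%). It was found for 5 with Jun (11.6%, against 13.7%), 6 with Junb (14.0%, against 11%) and 9 with Ier3 (20.9%, against 6.29%). With each of these 7 members 0% of all genes passed after adjustment. Egr1 is left out of these counts because its mice fell into separated levels, and Egr3 because it is described apart. Egr3 went the other way over the 12 mice, with 385 of 15879 genes past the adjusted threshold by permutation, among them Dusp2. With Egr3, 8 of the 43 had an unadjusted permutation p under 0.05 (18.6%), as did 1548 of all 15879 genes. Dusp2, a phosphatase of MAP kinases, was 1.80 to 7.42 normalized TPM in the 5 mice of high B cell markers and Egr3 and 0.202 to 0.807 in the other 7.

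The factors that act on these genes were listed, and each gene was read from the fit over all genes. Of 17 AP-1 partners and related bZIP factors, 13 were higher in Spry2IEKO and 5 higher in litter B, and none passed the threshold in either comparison. The smallest p between genotypes belonged to Mafk (-0.17, SE 0.06) and Batf2 (-0.26, SE 0.10) on the log2 scale, with adjusted p of 0.693 and 0.753 by limma. Between litters it belonged to Atf2 (-0.24, SE 0.06, adjusted p = 0.0503) and Jdp2 (-0.54, SE 0.24, adjusted p = 0.208). Of 19 SRF cofactors and upstream kinases, none passed between genotypes and 3 fell in litter B, beside 4.38% of all genes called between litters, most of them lower in litter B. These were Mapkapk2, a kinase downstream of p38, at 54.6 ± 2.46 and 42.1 ± 3.30 normalized TPM in litters A and B, Mrtfb, an actin-regulated partner of SRF, at 16.2 ± 1.84 and 12.5 ± 1.11, and Mapk3, which encodes ERK1 and was named after its values were seen (SD, n = 6 each). Their log2 differences were -0.37 (SE 0.06), -0.36 (SE 0.08) and -0.20 (SE 0.05), with adjusted p of 0.0123, 0.0297 and 0.0382 by limma. Mapkapk2 remained past the threshold in 12 of 12 fits without 1 mouse, Mrtfb in 3 and Mapk3 in 2. Mrtfb lost the call after quantile normalization (adjusted p = 0.0873) and median-of-ratios scaling (0.0592), and Mapk3 after the latter (0.105). With females alone none of the 3 passed, with adjusted p of 0.103 to 0.121. Fibroblast markers, 5 of 5 above 0, summed to 254 to 439 in litter A and 150 to 286 in litter B, and endothelial markers, also 5 of 5, to 37.0 to 72.3 and 16.7 to 25.8, and their part in these litter differences was not tested.

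Targets of the set were described in the same way. Of 15 AP-1 targets 13 were tested, with 10 higher in Spry2IEKO and none past the threshold, and 2 fell in litter B, beside the same 4.38%. These were Plau, which encodes urokinase (log2 difference -0.70, SE 0.16, adjusted p = 0.0329 by limma), and Mmp10, a matrix metalloprotease (-0.82, SE 0.21, adjusted p = 0.0463). Plau kept the call in 5 of 12 fits without 1 mouse and Mmp10 in 0 of the 8 in which it stayed above the filter. After quantile normalization both lost it, with adjusted p of 0.0714 and 0.0905, and in females alone they had 0.195 and 0.166. Mmp10 also lost it after median-of-ratios scaling (0.0601). The part of the stromal markers in these values was not tested. Of 7 tested corepressors and targets of Egr factors, all 7 were higher in Spry2IEKO, with a median log2 difference of 0.10 and an unadjusted p under 0.05 for none of them. Ccn2 also belonged to this list and was its only call between litters. Of 13 heat shock genes, 6 were higher in Spry2IEKO and none passed in either comparison.

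Of the pathway lists, the delayed targets of ERK held the only call between genotypes, beside 0.0315% of all genes (5 of 15880). Among the marker lists 1 gene was called, the mast cell protease gene Cma1, at 21.3 ± 7.59 normalized TPM in Spry2IEKO and 5.24 ± 1.98 in Spry2FF (log2 difference 1.90, SE 0.26, adjusted p = 0.035 by limma). This call was not followed under other settings. Of 5 mast cell markers 2 were tested, and the other, Mcpt1, averaged 0.707 in Spry2IEKO and 0.748 in Spry2FF (log2 difference -0.006, SE 0.27). Etv4, an ETS factor, was 23.8 ± 1.88 normalized TPM in Spry2IEKO and 12.1 ± 3.43 in Spry2FF (SD, n = 6 each), a log2 difference of 0.98 (SE 0.15, adjusted p = 0.043 by limma). It kept its direction without any 1 mouse, from 0.91 to 1.098, and passed the threshold in 1 of 12 such fits, with adjusted p up to 0.17. After quantile normalization it had 0.0515, after rescaling to equal totals 0.0505 and in females alone 0.496. Dusp6, the ERK phosphatase, was 36.1 ± 4.18 and 25.8 ± 3.72, with a log2 difference of 0.48 (SE 0.10, adjusted p = 0.25). Of the 17 genes of this list 10 were higher in Spry2IEKO, the median log2 difference was 0.15 and 1 passed, and between litters 6 were higher in litter B and none passed.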

How the data were processed

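RNA of distal colon was sequenced from 12 mice. The submitters' processing notes name CASAVA, kallisto, sleuth and the mm10 build; whether the strand-marked libraries were counted by strand is not given in the sources used here, which also give both single and paired ends. The deposited values are a signal, TPM scaled between libraries by the authors, and not counts or plain TPM. The 113974 entries held 781 repeats of a transcript, which were dropped, and 113193 transcripts were summed over 35241 symbols, and the files hold no counts, so counting error could not be computed. Genes whose mean reached 0.5 were tested on log2(normalized TPM + 0.5) with limma 3.58.1 (trend) in R 4.3.3, with Benjamini-Hochberg adjustment over 15880 genes and a threshold of 0.05. A fold change on this scale understates that of low genes. Genotype was fitted with no covariate, and litter with genotype. Exact permutation tests used all splits of the mice, and correlations 100000 permutations in NumPy 2.4.6. The members and gene lists were chosen with earlier results of these data known. Named were the 10 members, Spry2, the 5 other immediate early genes with the largest difference in each comparison, the 10 most and 5 least like Fos, and, at most, the 2 genes of smallest p per further list and comparison. Promoter letters and positions came from RefSeq and GENCODE M21. The fits were checked on simulated data. Alternatives were the pseudocount, filter, scaling, covariates, litter, sex and each mouse left out. Some items are not reported here and were left out of the marker sums.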

Additional observations from a re-analysis of the deposited data

Results flagged for a closer look

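Among 44 groups of 6 mice (11 genes in each genotype and each litter), 6 held a mouse far from its group, with a gap to the nearest mouse above 0.625 of the group's range. Chance alone marks about 1 in 20 groups. Fos was 206.9 normalized TPM in Spry2FF replicate 9, with 78.4 the next value in its genotype (gap 0.778 of the range) and 66.3 the next in litter B (0.853). Fosl2 was 85.2 in Spry2FF replicate 3, with 59.6 next (0.843). Junb was 15.4 in Spry2FF replicate 2, the lowest of its genotype, with 24.1 next (0.673). Egr2 was 0.731 in Spry2FF replicate 3, with 0.167 next in its genotype (0.814), and 0.931 in Spry2IEKO replicate 8, with 0.200 next in litter B (0.785).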

How the results depend on the processing

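No paired analysis was possible because each mouse has a replicate number of its own. No immediate early gene of the set was called under any setting in 250 fits of genotype, 214 of litter and 162 of the interaction, with lowest adjusted p of 0.607, 0.134 and 0.835 by limma. The cause of the shifts below was not tested. Leaving out mice for the exact permutation test and for the Jun correlations was chosen after seeing the data.

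Genes called between genotypes numbered 3 with a mean of at least 0.1, 1 with no filter, 1 with sex and 1 with litter and sex as covariates, 2 after quantile normalization, 3 without the trend, 2 in females, 2 with litter A alone, 1 with litter B alone, and 1 (without Spry2FF replicate 2) to 11 (without Spry2IEKO replicate 8) with 1 mouse left out. Between litters they numbered 422 with no filter, 1458 after rescaling and 1 in females, and 180 (without Spry2IEKO replicate 5) to 957 (without Spry2IEKO replicate 8) with 1 mouse left out. For the interaction they numbered 2 to 5, and for likeness to Fos 0 to 0, as for exact permutation, whose smallest possible p leaves little room for calls.

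On the log2 scale, genotype differences turned positive for Fos with sex (0.053), litter and sex (0.053), in females (0.29) and in litter A (0.34), for Fosb in litter A (0.18), for Fosl1 with sex (0.031), litter and sex (0.031), in females (0.016) and litter B (0.18), and for Fosl2 with sex (0.037) and litter and sex (0.037). They turned negative in litter B for Egr1 (-0.15) and Ccn1 (-0.035). Litter differences in females turned negative for Fos (-0.40), Fosb (-0.22), Junb (-0.32) and Spry2 (-0.12), and Spry2 also after rescaling (-0.068). After quantile normalization and median-of-ratios scaling they turned positive for Fosl1 (0.060, 0.020), Jun (0.063, 0.047) and Ier3 (0.056, 0.0035). Interactions turned for Fosl2 with sex (-0.098) and Egr3 with a pseudocount of 0.1 (0.062). The r with Fos turned for Jun by rank (-0.14) and in litter B (-0.16), for Junb in litter B (-0.030) and for Ier3 by rank (0.091) and in litter A (0.39).

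With 1 mouse left out, genotype differences ranged from -0.18 to 0.33 for Fos, -0.22 to 0.033 for Fosb, -0.115 to 0.029 for Fosl1 and -0.13 to 0.031 for Fosl2, and litter differences from -0.26 to 0.30 for Fos, -0.040 to 0.24 for Fosb, -0.099 to 0.053 for Fosl1, -0.12 to 0.093 for Jun, -0.087 to 0.27 for Junb, -0.59 to 0.029 for Egr3, -0.11 to 0.029 for Ier3 and -0.047 to 0.063 for Spry2. Interactions ranged from -1.38 to 0.034 for Fos, -0.085 to 0.22 for Fosl2, -0.75 to 0.066 for Junb, -0.90 to 0.49 for Egr3, -0.30 to 0.013 for Ier3 and -0.087 to 0.16 for Spry2. Differences of means in the exact permutation test ranged from -15.9 to 18.9 normalized TPM for Fos, -0.297 to 0.018 for Fosb, -0.112 to 0.0303 for Fosl1, -5.65 to 1.97 for Fosl2 and -4.83 to 0.075 for Junb. The r with Fos ranged from -0.0090 to 0.27 for Fosl2, -0.11 to 0.18 for Jun and -0.21 to 0.22 for Ier3.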
